A study of Sus scrofa with 4 samples.

Results

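Matrix-degrading and membrane-shedding metalloproteinases, their non-proteolytic relatives and their inhibitors were examined in lung cells sorted by an LGR5 reporter. The genes were all those whose name in the deposited count tables begins with MMP, ADAM, ADAMTS, ADAMTSL or TIMP followed by a digit, 66 of the 29263 genes. They comprised 19 matrix metalloproteinases (MMPs), 20 ADAMs, 19 ADAMTS genes, 5 ADAMTS-like genes and 3 tissue inhibitors of metalloproteinases (TIMPs). MMP1 and TIMP2 were not analysed here. The rule picks genes by name and uses no measured value, but it was chosen with earlier results of these data known.

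MMPs are zinc-dependent enzymes that cut collagens, elastin and other matrix proteins. They are secreted or held at the cell surface as inactive proenzymes, and TIMPs block the active site. ADAMs are membrane proteins that release the outer part of other membrane proteins, such as growth factors, cytokines and adhesion molecules, although some family members lack a working active site and act in cell contact. ADAMTS enzymes are secreted, carry thrombospondin repeats, and trim procollagens, cleave proteoglycans such as versican and aggrecan, or act on fibrillin microfibrils and blood proteins, while ADAMTS-like proteins have the repeats without the protease. In lung, fibroblasts are a main source of matrix and of several of these enzymes, and neutrophils and macrophages bring their own MMPs.

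All 4 libraries came from lungs of LGR5-H2B-GFP knock-in pigs, where a fluorescent histone (H2B-GFP) is made from the locus of LGR5, a receptor for R-spondins. The titles give 2 fluorescence-bright (GFP-HI) and 2 fluorescence-negative (GFP-NEG) libraries, each with biological replicate number 1 or 2, and no label gives the animals' age, though the name of the deposited comparison table contains the words adult pig. Tissue was digested with dispase, collagenase and DNase before sorting, so that every library passed through an added collagenase treatment, and the antibody gates of these sorts are not stated. GFP-HI libraries held 24200550 and 24689986 counts and GFP-NEG libraries 6292253 and 7045652, so that 1 count was worth at most 0.0496 CPM (the usual depth-scaled count, computed here with the TMM method) in GFP-HI and at most 0.155 CPM in GFP-NEG. LGR5 itself had 3218 and 3073 counts in GFP-HI against 10 and 7 in GFP-NEG.

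The sorted fractions were mixtures of cell types. In bulk samples, fewer cells of a type and less RNA per cell cannot be told apart. Summed over 8 fibroblast markers, the level was 81118 and 71308 CPM in GFP-HI against 25212 and 9002 CPM in GFP-NEG. The 5 neutrophil markers found summed to 186 and 167 CPM in GFP-HI against 1847 and 819 CPM in GFP-NEG. CSF3R, a receptor gene on this list, was at 70.4 and 19.6 CPM in GFP-HI against 1186 and 644 CPM in GFP-NEG. Macrophage markers (7 genes) summed to 181 and 165 CPM against 800.1 and 567 CPM, endothelial markers (5 genes) to 150.1 and 155 CPM against 1121 and 491 CPM, and cartilage markers (5 genes) to 258 and 108 CPM against 6303 and 838 CPM. The GFP-NEG libraries differed from each other, replicate 1 holding more in each of these lists. In GFP-NEG replicates 1 and 2, smooth muscle and pericyte markers summed to 2173 and 309 CPM and epithelial markers to 708 and 201 CPM. Lymphocyte markers went the other way, at 406 and 916 CPM, as did the 1 mesothelial marker found, at 0 and 2.63 CPM. In GFP-HI replicates 1 and 2, smooth muscle and pericyte markers summed to 1522 and 2138 CPM and epithelial markers to 262 and 354 CPM. Both of these lists were thus lower in GFP-HI in replicate 1 and higher in GFP-HI in replicate 2. The part of these cell mixtures in the differences given here was not tested.

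Of the 66 genes, 56 passed the filter on low counts and 10 did not. Among the 56, 16 were higher and 10 lower in GFP-HI at an adjusted p under 0.05 in edgeR's quasi-likelihood test, and 30 did not pass. The shares were 28.6% higher and 17.9% lower. Over all 19682 genes tested, 8.35% were higher and 27.6% lower, and among those with a gene symbol the shares were 11.3% and 15.2%. The median log2 fold change was 0.04 over the 56 genes and -0.25 over all genes tested. A gene could pass the filter through the group in which it was high, so these counts describe the genes and are not offered as support for a difference. Both groups were fully apart for 21 of the 56 in the higher direction and 18 in the lower direction, beside 27.7% and 42% of all genes tested. In DESeq2, 12 genes were higher and 11 lower, beside 6.91% and 26.7% of all genes, and with the replicate number as a block in edgeR 18 were higher and 9 lower, beside 8.67% and 24.4%.

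The counts by subfamily can be set beside 8.35% higher and 27.6% lower over all genes tested. ADAMTS genes had 6 higher and 1 lower of 18 tested, with a median log2 fold change of 0.83. ADAMTS-like genes had 2 higher and 0 lower of 5 tested. MMPs were split, with 5 higher and 6 lower of 17 tested, and ADAMs had 3 higher and 3 lower of 13 tested. Of the 3 TIMPs, 0 passed in either direction in edgeR, 0 had an unadjusted p under 0.05, and 0 passed in DESeq2. The differences between subfamilies were not tested.

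**Figure D1:**
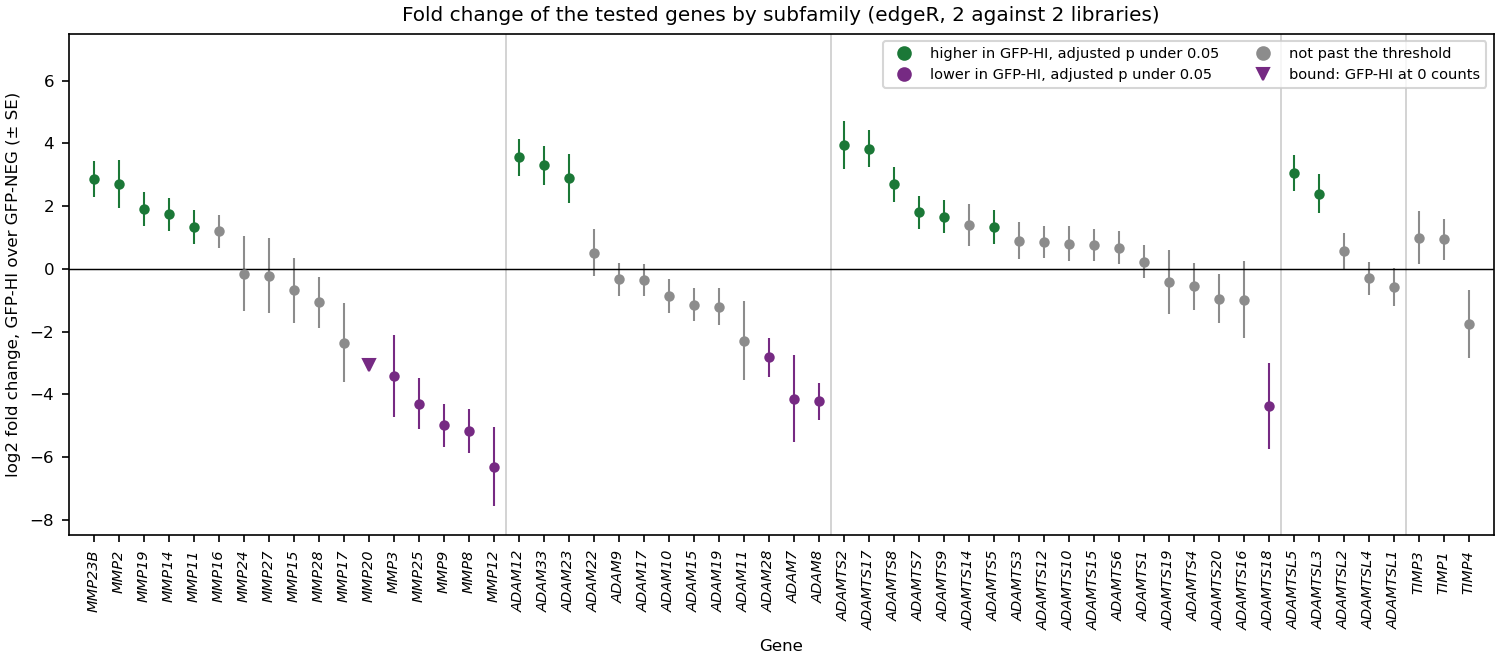
Log2 fold change of GFP-HI over GFP-NEG (vertical axis) for each of the 56 tested genes, grouped by subfamily, with bars of 1 standard error from edgeR with 2 libraries in each group. The 16 green genes were higher and the 10 purple genes lower in GFP-HI, grey genes did not pass, and the triangle is the bound for MMP20, which had 0 counts in GFP-HI.

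The MMPs that were higher in GFP-HI were MMP23B, MMP2, MMP19, MMP14 and MMP11. MMP2 (gelatinase A), which degrades denatured collagen and basement membrane collagen, was at 732 and 831 CPM in GFP-HI against 194 and 43.5 CPM in GFP-NEG. Both GFP-HI libraries lay above both GFP-NEG libraries (log2 fold change 2.72 ± 0.76 (SE), adjusted p of 0.0018, edgeR). MMP14, the membrane-anchored enzyme that activates the MMP2 proenzyme at the cell surface, was at 74.3 and 43.2 CPM in GFP-HI against 27.9 and 7.45 CPM in GFP-NEG (log2 fold change 1.74 ± 0.53 (SE), adjusted p of 0.0044, edgeR). The groups did not overlap, and the gap between the GFP-NEG libraries was wider than that between the GFP-HI libraries. MMP23B, a membrane-bound MMP without the usual hemopexin domain, measured 55.7 and 43.7 CPM against 10.2 and 3.51 CPM (log2 fold change 2.87 ± 0.57 (SE), adjusted p of 1.5e-05, edgeR), and here too the groups were apart. MMP19, a secreted MMP of broad matrix specificity, measured 55.7 and 37.1 CPM in GFP-HI against 18.3 and 6.69 CPM in GFP-NEG (log2 fold change 1.90 ± 0.55 (SE), adjusted p of 0.0023, edgeR). MMP11 (stromelysin-3), an enzyme known from stromal fibroblasts, had the smallest difference of the 5, with 47.2 and 27.1 CPM in GFP-HI against 20.3 and 9.10 CPM in GFP-NEG (log2 fold change 1.34 ± 0.54 (SE), adjusted p of 0.040, edgeR).

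The size of these 5 differences depended on which GFP-NEG library was used. Without GFP-NEG replicate 2 the log2 fold changes were 2.01 for MMP2, 1.07 for MMP14, 2.28 for MMP23B, 1.34 for MMP19 and 0.87 for MMP11, and 0 of the 5 passed in edgeR (adjusted p between 0.053 and 0.52). With GFP-NEG replicate 1 left out they were 4.17 for MMP2, 2.98 for MMP14, 3.82 for MMP23B, 2.79 for MMP19 and 2.03 for MMP11, and all 5 passed. Without GFP-HI replicate 1, MMP14 (1.35), MMP19 (1.63) and MMP11 (0.94) did not pass. MMP11 also lost its call under library-size scaling, upper-quartile scaling, a stricter filter, thinned counts and DESeq2, with adjusted p between 0.065 and 0.17.

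MMP8, MMP9 and MMP25, which are carried in or on neutrophils, were lower in GFP-HI. MMP9 (gelatinase B) was at 0.634 and 1.49 CPM in GFP-HI against 41.1 and 26.6 CPM in GFP-NEG, with all GFP-NEG values far above the GFP-HI values (log2 fold change -4.99 ± 0.69 (SE), adjusted p of 1.5e-10, edgeR). MMP25, a membrane-anchored MMP of leukocytes, was at 0.861 and 0.843 CPM against 20.6 and 13.3 CPM, and the replicates of each group lay close together (log2 fold change -4.30 ± 0.81 (SE), adjusted p of 4.8e-06, edgeR). MMP8 (neutrophil collagenase) was uneven, at 1.72 and 0.0991 CPM in GFP-HI against 63.2 and 3.51 CPM in GFP-NEG. In each group replicate 1 was far higher than replicate 2, and the groups were still apart (log2 fold change -5.16 ± 0.70 (SE), adjusted p of 6.4e-11, edgeR). The call was much weaker in DESeq2 (log2 fold change -5.21 ± 2.08 (SE), adjusted p of 0.039, DESeq2). The MMP8 call was lost without GFP-NEG replicate 1 (log2 fold change -1.93, adjusted p of 0.37, edgeR), and the value was -8.20 without GFP-HI replicate 1 and -6.09 without GFP-NEG replicate 2. The neutrophil markers moved in the same direction: 3 of the 4 tested were lower in GFP-HI, and S100A12, the other, was at 91.6 and 135 CPM against 423 and 95.0 CPM (log2 fold change -1.19, adjusted p of 0.12, edgeR). The part of neutrophils in the MMP values was not tested.

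Gelatinases went in opposite directions, with MMP2 higher and MMP9 lower in GFP-HI. In raw counts, MMP2 had 16151 and 16754 in GFP-HI against 1251 and 397 in GFP-NEG, while MMP9 had 14 and 30 and 265 and 243. Transcript lengths were not used here, so levels are compared only within a gene.

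MMP12, MMP3 and MMP20 were the other MMPs called lower, and all 3 were low in every library. They fell outside the rule for named genes and were chosen after their values were seen. MMP12 (macrophage elastase) had 1 and 3 counts in GFP-HI against 70 and 53 in GFP-NEG (log2 fold change -6.32 ± 1.26 (SE), adjusted p of 1.5e-05, edgeR). MMP3 (stromelysin-1) had 15 and 0 counts in GFP-HI against 41 and 11 in GFP-NEG (log2 fold change -3.42 ± 1.30 (SE), adjusted p of 0.027, edgeR). Its call was lost without GFP-HI replicate 2 (log2 fold change -2.43) and without GFP-NEG replicate 1 (-1.80), and the GFP-HI library with 0 counts leaves the size uncertain. MMP20 (enamelysin), known for its part in tooth enamel, had 0 and 0 counts in GFP-HI against 8 and 14 in GFP-NEG. Against a floor of 3 counts per library this was at least 8.35-fold lower in GFP-HI (adjusted p of 2.9e-04, edgeR). Its call was lost when either GFP-NEG library was left out (adjusted p of 0.074 without replicate 1 and 0.21 without replicate 2), and it was not tested, being under the filter, after thinning GFP-HI to the depth of GFP-NEG. GFP-NEG libraries detected 24120 and 25985 genes at their lower depth, against 18752 and 18392 in GFP-HI, so low counts of many genes were spread through GFP-NEG.

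Several of these genes lie side by side. In the RefSeq gene table of the Sscrofa11.1 assembly, used here for gene order only, MMP7, MMP20, MMP27, MMP8, MMP3, MMP12 and MMP13 follow each other in this order with at most 1 protein-coding gene between neighbours. Of the 5 tested among them, 0 were higher in GFP-HI and 4 were lower (MMP20, MMP8, MMP3 and MMP12), and MMP27 did not pass (log2 fold change -0.22, adjusted p of 0.91, edgeR). Over all genes tested, 8.35% were higher and 27.6% lower. MMP13 (collagenase-3) and MMP7 (matrilysin) were under the filter, with 0 counts in both GFP-HI libraries and 5 and 3 and 1 and 4 counts in the GFP-NEG libraries. All 5 MMPs higher in GFP-HI lay outside this run of genes.

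The other 5 tested MMPs did not pass the threshold. MMP16, a membrane-anchored relative of MMP14, was at 43.3 and 54.4 CPM in GFP-HI against 34.3 and 8.33 CPM in GFP-NEG, with the groups just apart (log2 fold change 1.20 ± 0.52, adjusted p of 0.059, edgeR). With the replicate number as a block its adjusted p was 0.032 in edgeR, and without GFP-NEG replicate 1 it was 0.0082. MMP15, MMP17 and MMP24, also of the membrane type, and MMP28 (epilysin) had log2 fold changes of -0.68, -2.35, -0.16 and -1.07, with adjusted p between 0.13 and 0.93 in edgeR.

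**Figure D2:**
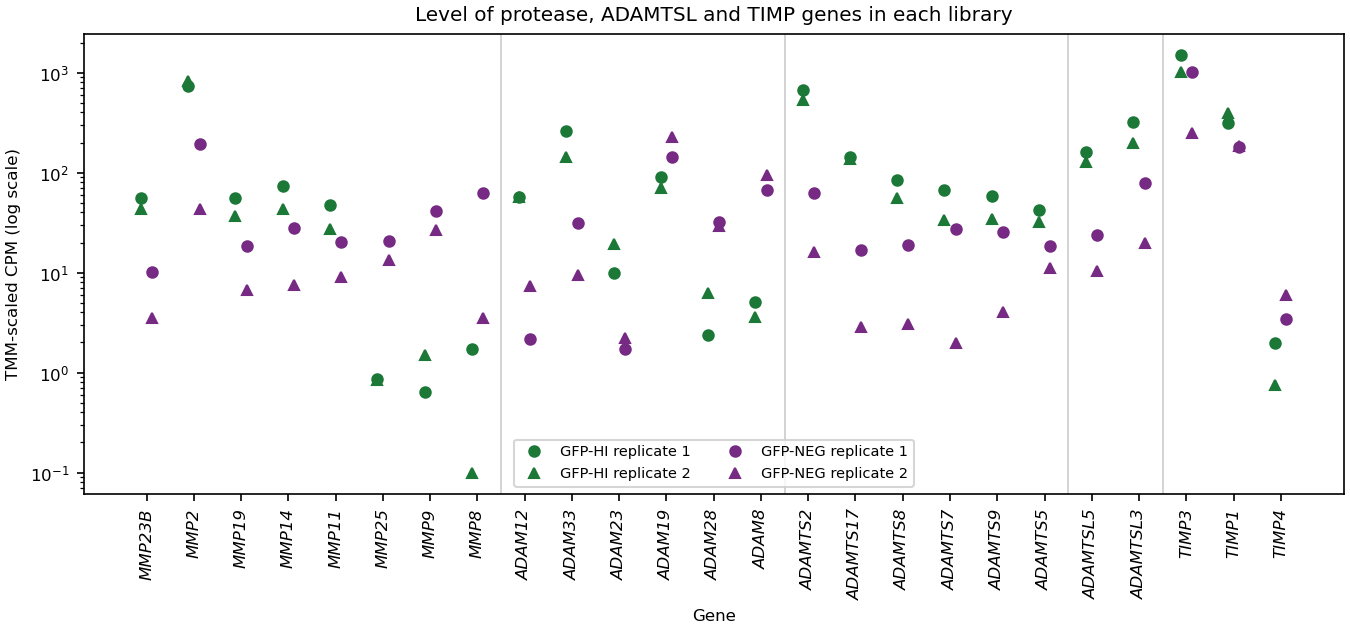
TMM-scaled CPM on a log axis in each of the 4 libraries for the genes named by rule, in green for GFP-HI and purple for GFP-NEG, with circles for replicate 1 and triangles for replicate 2. MMP2, MMP14 and most ADAMTS genes sit higher in GFP-HI with the GFP-NEG circle above the GFP-NEG triangle, and MMP8, MMP9, MMP25, ADAM8 and ADAM28 sit higher in GFP-NEG.

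Among ADAMs, ADAM12, ADAM33 and ADAM23 were higher and ADAM8, ADAM28 and ADAM7 lower in GFP-HI. ADAM12 (meltrin alpha), a protease of developing muscle and activated fibroblasts, was nearly equal in the GFP-HI libraries at 57.4 and 56.6 CPM. In GFP-NEG it was at 2.17 and 7.34 CPM, so that both were far below and replicate 2 was the higher (log2 fold change 3.56 ± 0.58 (SE), adjusted p of 9.0e-08, edgeR). ADAM33, a gene of mesenchymal cells known from asthma genetics, was at 262 and 144 CPM in GFP-HI against 31.7 and 9.54 CPM in GFP-NEG, again with no overlap (log2 fold change 3.30 ± 0.61 (SE), adjusted p of 3.0e-06, edgeR). Both passed under all 12 alternatives, with log2 fold changes from 2.96 (without GFP-NEG replicate 1) to 4.71 (without GFP-NEG replicate 2) for ADAM12, and from 2.68 (without GFP-NEG replicate 2) to 4.41 (without GFP-NEG replicate 1) for ADAM33. ADAM23, which lacks protease activity and binds LGI proteins in the nervous system, was at 9.83 and 19.2 CPM against 1.71 and 2.19 CPM (log2 fold change 2.88 ± 0.79 (SE), adjusted p of 0.0013, edgeR). Without GFP-HI replicate 2 it did not pass (log2 fold change 2.36, adjusted p of 0.11, edgeR).

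ADAM8, a protease of neutrophils and other leukocytes, was at 5.07 and 3.57 CPM in GFP-HI against 67.7 and 94.3 CPM in GFP-NEG. Every GFP-NEG value was far above the GFP-HI values (log2 fold change -4.22 ± 0.59 (SE), adjusted p of 2.0e-10, edgeR). ADAM28, known from lymphocytes, was at 2.40 and 6.25 CPM against 32.0 and 29.4 CPM, with GFP-NEG replicates close together (log2 fold change -2.83 ± 0.61 (SE), adjusted p of 6.7e-05, edgeR). It passed under all 12 alternatives, from -3.64 without GFP-HI replicate 2 to -2.22 without GFP-HI replicate 1. Beside these, 5 of 6 lymphocyte markers were lower in GFP-HI, and the list summed to 97.6 and 213 CPM in GFP-HI against 406 and 916 CPM in GFP-NEG. The part of leukocytes in the ADAM8 and ADAM28 values was not tested. ADAM7, a non-proteolytic gene of the epididymis named after its values were seen, had only 3 and 3 counts in GFP-HI against 10 and 34 in GFP-NEG (log2 fold change -4.14 ± 1.39 (SE), adjusted p of 0.011, edgeR). Its call was lost with the replicate block (adjusted p of 0.052, edgeR) and whenever any 1 library was left out, with log2 fold changes from -4.64 (without GFP-NEG replicate 1) to -3.38 (without GFP-NEG replicate 2).

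The widely expressed sheddases did not pass. ADAM10, which cleaves Notch receptors and cadherins, was at 53.6 and 51.2 CPM in GFP-HI against 93.3 and 97.1 CPM in GFP-NEG. The groups were apart and the replicates close (log2 fold change -0.86 ± 0.53, adjusted p of 0.21, edgeR). ADAM17, the TNF-alpha converting enzyme, overlapped between groups at 54.7 and 45.1 CPM and 84.8 and 43.7 CPM (log2 fold change -0.36 ± 0.52, adjusted p of 0.63, edgeR). ADAM19, which cleaves neuregulins, was lower in both GFP-HI libraries, at 89.6 and 70.7 CPM against 144 and 225 CPM (log2 fold change -1.20 ± 0.58, adjusted p of 0.095, edgeR). It passed under library-size and upper-quartile scaling, in thinned counts and in DESeq2 (adjusted p between 0.014 and 0.050). ADAM15 and ADAM9 had log2 fold changes of -1.14 and -0.33, and the non-proteolytic ADAM11 and ADAM22 of -2.30 and 0.52. ADAM15 passed under library-size and upper-quartile scaling and without GFP-HI replicate 1, and ADAM10 under library-size scaling (adjusted p of 0.043, edgeR).

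The 7 ADAMs under the filter were ADAM2, ADAM3A, ADAM18, ADAM20, ADAM21, ADAM30 and ADAM32, a group known mainly from testis and sperm. ADAM3A had 11 and 66 counts in GFP-HI against 0 and 0 in GFP-NEG, and it passed in the fit without a filter (adjusted p of 0.015, edgeR). ADAM18 had 4 and 12 counts in GFP-HI and ADAM32 8 and 0, with 0 counts of either in GFP-NEG. ADAM30 had 7 and 6 counts in GFP-NEG and 0 in GFP-HI, and ADAM2 had 0 counts in every library. ADAM20 and ADAM21, close copies of each other between which reads could be split, had 1 and 7 and 1 and 2 counts in GFP-NEG and 0 in GFP-HI. At counts of this size a library with 0 is not evidence of absence, since 3 counts correspond to up to 0.149 CPM in a GFP-HI library and up to 0.466 CPM in a GFP-NEG library.

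The ADAMTS genes were led by ADAMTS2 and ADAMTS17. ADAMTS2 removes the N-propeptide of fibrillar procollagens, and it was at 678 and 532 CPM in GFP-HI against 62.7 and 16.0 CPM in GFP-NEG. Both GFP-HI libraries were high and similar, and the GFP-NEG libraries were low and unequal (log2 fold change 3.94 ± 0.76 (SE), adjusted p of 6.8e-06, edgeR). The related N-proteinases ADAMTS14 and ADAMTS3 had positive values that did not pass. ADAMTS14 was at 20.7 and 10.6 CPM against 7.92 and 3.95 CPM (log2 fold change 1.41 ± 0.67, adjusted p of 0.089, edgeR), and it passed with the replicate block (adjusted p of 0.049). ADAMTS3 was at 25.9 and 18.6 CPM against 18.9 and 5.04 CPM (log2 fold change 0.90, adjusted p of 0.23, edgeR), and it passed with GFP-NEG replicate 1 left out (2.14).

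ADAMTS17, which together with ADAMTS10 is linked to fibrillin microfibrils through the short-stature disorder Weill-Marchesani syndrome, was at 143 and 135 CPM in GFP-HI against 16.8 and 2.85 CPM in GFP-NEG. The GFP-HI replicates were nearly equal and the groups well apart (log2 fold change 3.84 ± 0.60 (SE), adjusted p of 1.6e-08, edgeR). ADAMTS10 overlapped between groups, at 33.2 and 16.1 CPM and 20.8 and 7.56 CPM (log2 fold change 0.80 ± 0.56, adjusted p of 0.28, edgeR). ADAMTS2 and ADAMTS17 passed under all 12 alternatives. With GFP-NEG replicate 2 left out they stood at 3.27 and 3.05 on the log2 scale, and with GFP-NEG replicate 1 left out at 5.24 and 5.61.

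Of the 7 ADAMTS genes known to cleave proteoglycans, ADAMTS8, ADAMTS9 and ADAMTS5 were higher in GFP-HI and 0 were lower. The shares over all genes tested were 8.35% and 27.6%, and this class was written with the values in view. ADAMTS8 was at 83.9 and 56.3 CPM in GFP-HI against 18.8 and 3.07 CPM in GFP-NEG (log2 fold change 2.69 ± 0.55 (SE), adjusted p of 2.5e-05, edgeR). ADAMTS9, a versican-cleaving enzyme, was at 58.6 and 34.1 CPM against 25.3 and 4.06 CPM (log2 fold change 1.67 ± 0.54 (SE), adjusted p of 0.0076, edgeR). The groups were apart for both, though GFP-NEG replicate 1 lay close under GFP-HI replicate 2 for ADAMTS9. ADAMTS5 (aggrecanase-2) was at 42.1 and 31.7 CPM against 18.3 and 11.2 CPM (log2 fold change 1.33 ± 0.54 (SE), adjusted p of 0.043, edgeR). It lost its call under 9 of 12 alternatives, among them library-size scaling, DESeq2 and the removal of any 1 library (adjusted p between 0.053 and 0.44). Without GFP-NEG replicate 2 the log2 fold changes of ADAMTS8, ADAMTS9 and ADAMTS5 were 1.90, 0.87 and 1.01, and 0 of the 3 passed. With GFP-NEG replicate 1 left out they were 4.51, 3.51 and 1.72.

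ADAMTS1, the neighbour of ADAMTS5 in the gene order with 2 coding genes between them, did not pass and had no stable direction. It was at 104 and 52.7 CPM in GFP-HI against 118 and 15.6 CPM in GFP-NEG, so that GFP-NEG held both the highest and the lowest value (log2 fold change 0.23 ± 0.53, adjusted p of 0.77, edgeR). Without GFP-NEG replicate 1 it was 2.33 and passed, without GFP-NEG replicate 2 -0.59, and under library-size scaling -0.03. ADAMTS15, directly beside ADAMTS8 in that order, was at 53.9 and 32.6 CPM and 37.3 and 13.7 CPM (log2 fold change 0.77, adjusted p of 0.26, edgeR). ADAMTS4 and ADAMTS20 had log2 fold changes of -0.55 and -0.95 and did not pass (adjusted p of 0.61 and 0.37, edgeR).

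ADAMTS7, which cleaves cartilage oligomeric matrix protein (COMP), was at 67.2 and 33.6 CPM in GFP-HI against 27.2 and 1.97 CPM in GFP-NEG. GFP-NEG replicate 1 lay near GFP-HI replicate 2, and GFP-NEG replicate 2 was far below (log2 fold change 1.80 ± 0.54 (SE), adjusted p of 0.0035, edgeR). Its call was lost in DESeq2 (adjusted p of 0.098), without GFP-HI replicate 1 (log2 fold change 1.26) or without GFP-NEG replicate 2 (0.89), and it was 4.67 without GFP-NEG replicate 1. ADAMTS9 followed the same pattern, with an adjusted p of 0.078 under DESeq2 and 0.21 without GFP-HI replicate 1. The related ADAMTS12 was at 63.8 and 76.2 CPM against 59.2 and 18.1 CPM and did not pass (log2 fold change 0.86 ± 0.52, adjusted p of 0.20, edgeR). It passed without GFP-NEG replicate 1 (1.95, adjusted p of 0.045, edgeR) and was at 0.24 without GFP-NEG replicate 2. ADAMTS6, ADAMTS16 and ADAMTS19 had log2 fold changes of 0.68, -0.98 and -0.42 and did not pass.

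ADAMTS18 was the 1 ADAMTS gene that was lower in GFP-HI. It had 7 and 1 counts in GFP-HI against 21 and 43 in GFP-NEG, under 10 CPM throughout, and is named after its values were seen (log2 fold change -4.37 ± 1.36 (SE), adjusted p of 0.0055, edgeR). Its call was lost without GFP-HI replicate 2 (log2 fold change -3.58) and without GFP-NEG replicate 2 (-4.08), and the value was -5.99 without GFP-HI replicate 1. ADAMTS13, which trims von Willebrand factor, was under the filter with 9 and 1 counts in GFP-HI against 4 and 34 in GFP-NEG.

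Of the 5 ADAMTS-like genes, ADAMTSL5 and ADAMTSL3 were higher in GFP-HI. ADAMTSL5, which binds fibrillin, was at 159 and 127 CPM in GFP-HI against 23.9 and 10.4 CPM in GFP-NEG, with the groups well apart (log2 fold change 3.06 ± 0.58 (SE), adjusted p of 4.6e-06, edgeR). ADAMTSL3 was at 324 and 196 CPM against 79.3 and 20.0 CPM (log2 fold change 2.39 ± 0.62 (SE), adjusted p of 6.5e-04, edgeR). Without GFP-NEG replicate 2 the values were 2.58 for ADAMTSL5, which passed, and 1.71 for ADAMTSL3, which did not, and without GFP-NEG replicate 1 they were 3.78 and 3.70. ADAMTSL4, linked to lens dislocation, overlapped between groups at 78.6 and 49.0 CPM and 82.9 and 73.6 CPM (log2 fold change -0.29 ± 0.52, adjusted p of 0.71, edgeR). ADAMTSL2 and ADAMTSL1 also overlapped, with log2 fold changes of 0.57 and -0.57.

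The inhibitors did not pass the threshold. TIMP3, which is held in the matrix and also inhibits ADAM17 and several ADAMTS enzymes, had 33399 and 20289 counts in GFP-HI against 6534 and 2277 in GFP-NEG. In CPM this was 1513 and 1006 CPM against 1014 and 249.6 CPM, so that GFP-NEG replicate 1 was about level with GFP-HI replicate 2 and replicate 2 was far lower (log2 fold change 0.99 ± 0.84, adjusted p of 0.38, edgeR). TIMP1, a soluble inhibitor of most MMPs, was at 314 and 394 CPM in GFP-HI against 181 and 186 CPM in GFP-NEG. The groups were apart and the GFP-NEG replicates almost the same (log2 fold change 0.95 ± 0.66, adjusted p of 0.27, edgeR). TIMP4 was low, at 1.99 and 0.744 CPM against 3.42 and 5.92 CPM (log2 fold change -1.77 ± 1.09, adjusted p of 0.21, edgeR). A miss does not show equal levels: when single libraries were left out, the log2 fold change ran from 0.31 to 2.33 for TIMP3, but only from 0.81 to 1.18 for TIMP1.

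Regulators of MMPs were split. Of 15 tested genes on a list of secreted and membrane regulators, 4 were higher and 4 lower in GFP-HI, and the list had a median log2 fold change of -0.50. Over all genes tested, 8.35% were higher and 27.6% lower. RECK, a membrane-anchored inhibitor of MMP2, MMP9 and MMP14, was at 359 and 233 CPM in GFP-HI against 93.6 and 18.3 CPM in GFP-NEG (log2 fold change 2.40 ± 0.64 (SE), adjusted p of 8.3e-04, edgeR). PCSK6, a proprotein convertase, was at 39.0 and 52.7 CPM against 5.74 and 3.62 CPM (log2 fold change 3.30 ± 0.59 (SE), adjusted p of 1.4e-06, edgeR). TFPI2, a serine protease inhibitor of the matrix, and PLAT, the tissue plasminogen activator, had log2 fold changes of 1.78 and 2.11 (adjusted p of 0.011 and 5.0e-04, edgeR). TFPI2 was at 129 and 317 CPM in GFP-HI against 106 and 23.7 CPM in GFP-NEG, so that replicate 1 differed little. PLAT was at 68.8 and 113 CPM against 34.9 and 7.34 CPM, also with the larger difference in replicate 2. PLAU, the urokinase plasminogen activator, was at 68.8 and 123 CPM against 549 and 366 CPM (log2 fold change -2.25 ± 0.68 (SE), adjusted p of 0.0041, edgeR), and so the 2 plasminogen activators moved in opposite directions. The testican SPOCK2 was lower (log2 fold change -1.58, adjusted p of 0.021, edgeR), and SPOCK3 was lower at under 5 CPM. FURIN, which activates many MMP and ADAM proenzymes, was at 22.0 and 12.0 CPM and 28.3 and 19.8 CPM and did not pass (adjusted p of 0.52, edgeR). BSG and LRP1 were not analysed here.

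The partners and membrane substrates of ADAM10 and ADAM17 were lower or did not pass. Of 9 partner genes (tetraspanins and the iRhom complex), 0 were higher and 1, TSPAN33, was lower. RHBDF1 and RHBDF2, the iRhoms that carry ADAM17 to the surface, had log2 fold changes of 1.11 and -0.47 (adjusted p of 0.084 and 0.53, edgeR). Of 16 shed membrane proteins, 0 were higher and 10 lower, with a median of -2.80. The shares of all genes tested were 8.35% higher and 27.6% lower. HBEGF, an EGF receptor ligand, was at 8.97 and 8.13 CPM in GFP-HI against 70.5 and 115 CPM in GFP-NEG (log2 fold change -3.44 ± 0.56 (SE), adjusted p of 9.2e-08, edgeR). Several of the 10, such as TNF, IL6R and TNFRSF1B, are genes of leukocytes. Among leukocyte markers tested, 3 of 4 for neutrophils, 4 of 7 for macrophages and 5 of 6 for lymphocytes were lower in GFP-HI. The part of leukocytes in these values was not tested. NOTCH2 (-0.24), CD44 (-0.22) and APP (1.09) did not pass.

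Substrates, relatives and modifiers of the ADAMTS group went both ways. Of 17 tested genes, 5 were higher and 7 lower in GFP-HI, and the list had a median log2 fold change of 1.04. Among all genes tested, 8.35% were higher and 27.6% lower. Versican (VCAN), the large proteoglycan cleaved by ADAMTS5 and ADAMTS9, was at 803 and 741 CPM in GFP-HI against 214 and 94.6 CPM in GFP-NEG (log2 fold change 2.32 ± 0.76 (SE), adjusted p of 0.0080, edgeR). The fibrillins FBN1 and FBN2 and their partner LTBP1 were higher by log2 fold changes of 3.50, 4.29 and 3.37 (adjusted p of 5.2e-04, 9.7e-10 and 0.0015, edgeR), and papilin (PAPLN), an ADAMTS relative, by 1.47 (adjusted p of 0.018). Aggrecan (ACAN), COMP and COL2A1, matrix genes of cartilage, were lower, with log2 fold changes of -3.15, -3.74 and -4.35 (adjusted p of 1.0e-06, 2.0e-07 and 3.4e-04, edgeR). In GFP-NEG they were unequal, COL2A1 being at 5313 and 681 CPM in replicates 1 and 2. The other 4 called lower were VWF (-2.20), HAPLN3 (-1.50, with overlapping groups) and, at under 10 CPM in every library, RELN (-3.26) and BCAN (-4.78). The procollagens COL1A1, COL1A2 and COL3A1, substrates of ADAMTS2, did not pass (adjusted p of 0.36, 0.46 and 0.29, edgeR). Their log2 fold changes were 1.88 ± 1.53, 1.79 ± 1.76 and 2.16 ± 1.55 (SE). For each of them both GFP-HI libraries lay above both GFP-NEG libraries, so the miss does not show equal levels. Of 10 further MMP substrates, 6 were higher and 0 lower, beside the same 8.35% and 27.6% of all genes tested. The 6 were ELN, COL5A1, COL5A2, DCN, TNC and COL4A2, the last of them just under the threshold (log2 fold change 1.49 ± 0.63).

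Differences within each replicate number were compared next. Log2 CPM (1 count added) was higher in GFP-HI in both replicates for 16 of the 16 genes called higher, and lower in both for 10 of the 10 called lower. These genes were called from the same libraries, and the groups did not overlap for any of them. The shared sign was therefore nearly fixed in advance and adds no support. For 15 of the 16 higher genes the difference was larger in replicate 2. MMP2 differed by 1.91 in replicate 1 and 4.25 in replicate 2, and ADAMTS17 by 3.08 and 5.52. ADAM12 was the exception, at 4.62 and 2.93.

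**Figure D3:**
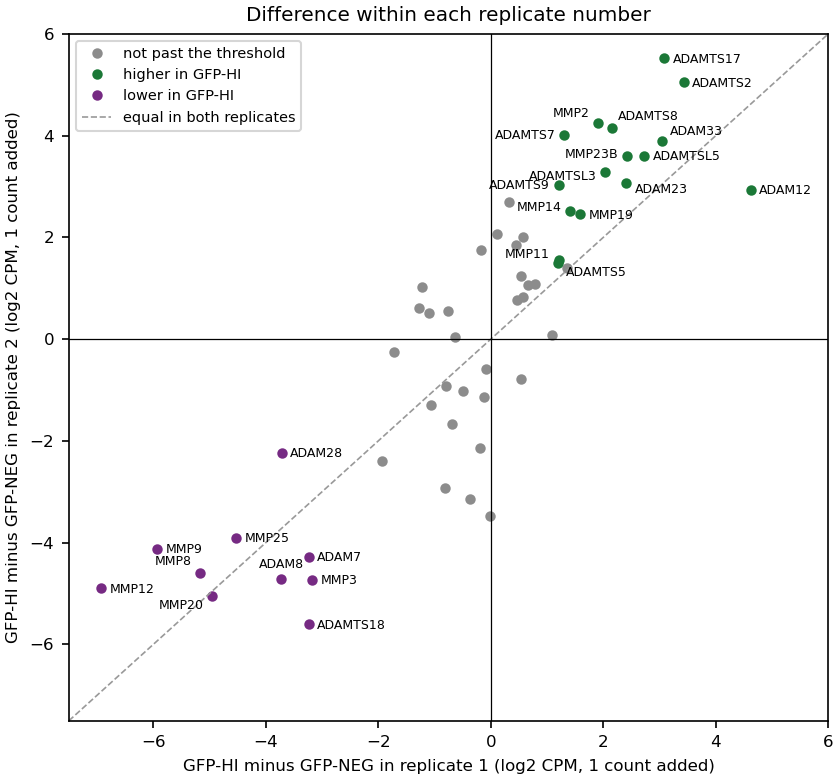
Difference of GFP-HI minus GFP-NEG in log2 CPM (1 count added) within replicate 1 (horizontal axis) and replicate 2 (vertical axis), 1 point per tested gene, with names for the 26 called genes and a dashed line where both are equal. All 16 green genes lie above 0 on both axes and, apart from ADAM12, above the dashed line, and the 10 purple genes lie below 0 on both axes.

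The GFP-NEG libraries were unequal in many of these genes. Among the 37 tested genes with a mean of at least 10 CPM, 25 (67.6%) differed by more than 2-fold between the GFP-NEG replicates, against 21.1% of 10015 genes at that level. In GFP-HI it was 6 of the 37 (16.2%), against 22.6%. GFP-NEG replicate 1 was the higher for 32 of the 37, against 6511 of the 10015 genes. The median log2 ratio over replicate 2 was 1.52, against 0.23 for all genes at that level. In GFP-HI, replicate 1 was the higher for 30 of the 37, against 4959 of the 10015 genes. The median log2 ratio there was 0.50, against -0.008 for all genes at that level. The fibroblast marker TCF21 differed in the same way, with 2351 counts in GFP-NEG replicate 1 and 160 in replicate 2, and the fibroblast list summed to 25212 and 9002 CPM in these libraries. The cartilage, smooth muscle, epithelial, endothelial, neutrophil and macrophage lists were also higher in GFP-NEG replicate 1. The part of fibroblasts or of these other cell types in the spread of these genes was not tested.

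**Figure D4:**
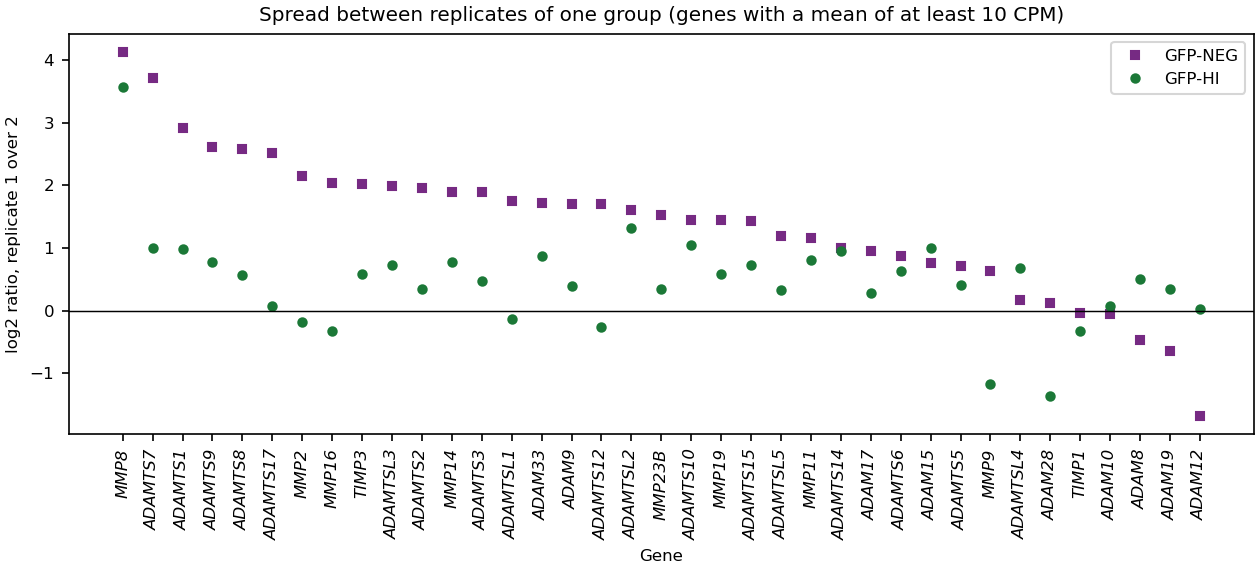
Log2 ratio of replicate 1 over replicate 2 (vertical axis) within GFP-NEG (purple squares) and within GFP-HI (green circles) for the 37 tested genes with a mean of at least 10 CPM, in order of the GFP-NEG ratio. In GFP-NEG 32 genes lie above 0 with a median of 1.52, and ADAM12 is the lowest, with GFP-NEG replicate 2 above replicate 1.

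Leaving out 1 library at a time moved the calls. Without GFP-NEG replicate 2, 13 of the 26 called genes passed, 6 of them higher in GFP-HI, and without GFP-NEG replicate 1, 21 of the 26 passed. Without GFP-HI replicate 1 or 2 it was 19 and 21 of 26. In such fits the lone library is assumed to vary like the others. The 26 genes kept their direction under the alternatives that gave a value, which were 11 for MMP20 (under the filter after thinning) and 12 for each of the others. Of them, 10 passed under all 12: ADAM12, ADAM33, ADAMTS2, ADAMTS17 and ADAMTSL5 among the higher genes, and ADAM8, ADAM28, MMP9, MMP12 and MMP25 among the lower.

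**Figure D5:**
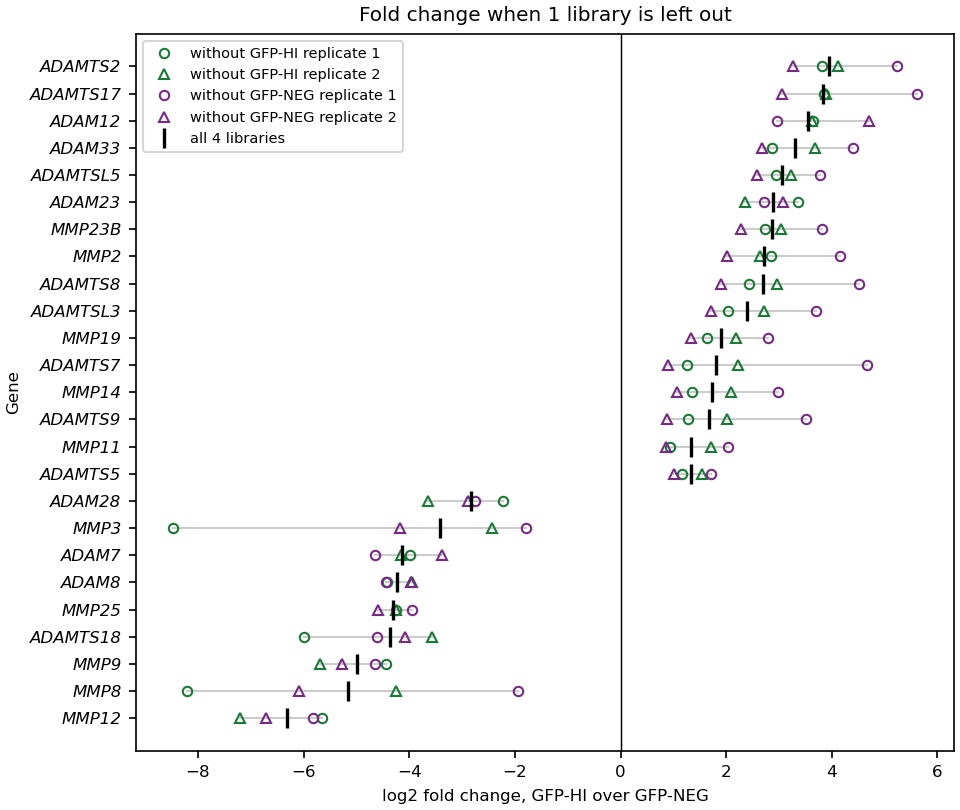
Log2 fold change of the called genes other than MMP20 with all 4 libraries (black bar) and with 1 library left out (open symbols, green for a GFP-HI and purple for a GFP-NEG library, circles for replicate 1 and triangles for replicate 2). For 14 of the 16 higher genes the lowest value is the fit without GFP-NEG replicate 2 and the highest the fit without GFP-NEG replicate 1, and MMP3 and MMP8 have the widest ranges among the lower genes.

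The authors' deposited table of the comparison lists 53 of the 66 genes. At an adjusted p under 0.05, the authors' deposited table calls 12 of them higher (8.2% of all its genes) and 5 lower (11.2%), and all 17 were called here in the same direction. These were 12 of the 16 and 5 of the 10 genes called here. In the authors' deposited table MMP2 has a log2 fold change of 2.72, ADAMTS2 of 3.94, ADAM12 of 3.55 and MMP9 of -5.01. Among the genes called here, MMP11, ADAMTS5, ADAMTS7 and ADAMTS9 have adjusted p-values of 0.0944, 0.0703, 0.0977 and 0.0791 in the authors' deposited table. MMP3, lower in both, has 0.0674 there, and 4 of the genes called here are not in it.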

How the data were processed

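RNA sequencing libraries from 2 GFP-HI and 2 GFP-NEG lung cell samples were compared, and replicate numbers come from the labels. For each library the authors deposited raw counts, as whole numbers per gene. The submitters' processing notes name featureCounts, Subread 1.5.2 and DESeq2 1.37.6 without a role, and the aligner and strand setting are not given in the sources used here. No label or header gives the genome build, though the name of the comparison table ends in a version string that begins like that of Sscrofa11.1. Without a stated strand setting, overlapping, antisense and near-identical genes are uncertain. From the authors' deposited comparison table of 16250 genes, the log2 fold changes and adjusted p-values are quoted; 4 columns of normalized values in it were not used. No label says whether replicates were separate animals, although headings in that table name pig 1 and pig 2. In the main fit, the edgeR p-values rest on a spread between these libraries that is pooled over genes. Closeness or scatter of a gene's own replicates is therefore not what they measure.

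Counts were tested with edgeR 4.0.16 (R 4.3.3; glmQLFit and glmQLFTest, TMM scaling, filterByExpr, group as the only term), with Benjamini-Hochberg adjustment over 19682 genes and a threshold of 0.05. The standard error is the size of the fold change over the square root of F. Prior degrees of freedom were infinite in the main fit, so the scatter of each gene's own replicates had no separate weight in its p-value. CPM is counts over the TMM-scaled total of the genes kept. Of the identifiers without a symbol, 834 took one from the gene name table provided, and none of these was among the 66 genes. Alternatives were DESeq2 1.42.0, 3 other scalings, 2 other filters, thinned GFP-HI counts, a replicate block and leaving out each library. Deviations of samples with the same number had a correlation of 0.157 across 19682 genes and 0.331 across the 10015 genes at 10 CPM or more; genes are not independent. The procedure was tested on simulated counts with known changes, most of which were not called with this number of libraries, so a gene that did not pass is not shown to be equal.

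Genes named with values were every TIMP, the 2 genes of each subfamily with the highest mean CPM, and each gene past the threshold with at least 10 CPM in the higher group and groups apart (at most 8 per direction and subfamily); others are named as stated. The 66 genes, the lists and their rules were chosen with earlier results of these data known, and the role classes were written with the values in view. Sequences were not used here.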

Additional observations from a re-analysis of the deposited data

How the results depend on the processing

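Among the 66 genes, 16 were higher and 10 lower in the main fit. Under library-size scaling the counts were 14 and 13, under upper-quartile scaling 14 and 12, under RLE scaling 16 and 10, under DESeq2 12 and 11, and with the replicate block 18 and 9. With 1 library left out they ran from 6 to 19 higher and from 6 to 10 lower. The lowest count of higher genes (6) was without GFP-NEG replicate 2, with 10 without GFP-HI replicate 1, and the lowest count of lower genes (6) was without GFP-NEG replicate 1. Over all genes, 1643 higher and 5433 lower became 888 higher under library-size scaling, 1083 higher under upper-quartile scaling and 3616 lower after thinning GFP-HI, where 16519 genes were tested. With 1 library left out the range was 204 to 1539 higher and 1373 to 4680 lower, both lowest without GFP-NEG replicate 2. Fewer samples enter those fits; for the scalings the cause was not tested. The median log2 fold change of all genes moved from -0.25 to -0.68 under library-size scaling and to -0.58 under upper-quartile scaling.

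The sign of 10 genes that did not pass turned when 1 library was left out. Their log2 fold changes ran from -0.76 to 0.19 for ADAM17, -0.94 to 0.77 for ADAM9, -0.59 to 2.33 for ADAMTS1, -1.15 to 1.04 for ADAMTS19, -1.22 to 0.68 for ADAMTS4, -1.21 to 0.56 for ADAMTSL1, -0.18 to 1.59 for ADAMTSL2, -0.60 to 0.037 for ADAMTSL4, -0.63 to 0.58 for MMP24 and -1.63 to 0.53 for MMP27. ADAMTS1 was also at -0.034 under library-size scaling. The replicate block changed the call of ADAM7, ADAMTS14 and MMP16 among the tested genes of these families and of no other. The shallower GFP-NEG libraries limit what can be seen of genes at a few counts there.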
